A study of Mus musculus with 6 samples.

Results

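Complement genes of the liver were examined in aged WT and *Sirt7* KO mice, as 9 of the 54115 genes to which reads were summed. They were taken by name as components of the complement cascade, namely *C3*, *C4b*, *Hc*, *C6*, *C8a*, *C8b*, *C8g*, *C9* and *Cfb*, and all 9 passed the filter on low counts, as 12524 genes did in all. RNA-seq was performed on the liver of 6 male mice, 3 WT and 3 *Sirt7* KO, all 24 months old and all fasted for 16 h before the liver was taken. The KO allele is present in the whole animal and not in one cell type, the line had been backcrossed to C57BL/6J, and the WT mice came from the same crosses of heterozygous parents. Whole liver was used, so fewer cells of a type and less RNA per cell cannot be told apart.

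Complement is a chain of plasma proteins made mostly by hepatocytes. The classical and lectin pathways cleave C4 (*C4b*), the alternative pathway uses factor B (*Cfb*), and all of them meet at C3 (*C3*), the most abundant component, which is cleaved to tag surfaces. Cleavage of C5 (*Hc*, for hemolytic complement) then starts the terminal pathway, in which C6, C7, C8 and many copies of C9 assemble into the membrane attack complex, a pore. C8 is built of the alpha and beta chains (*C8a*, *C8b*), which belong to the pore-forming family, and a gamma chain (*C8g*), a lipocalin. In laboratory mice the terminal components are known to be more abundant in males than in females, and several early components are acute phase genes.

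The pore-forming genes *C6*, *C8a*, *C8b* and *C9* had the largest differences between the genotypes, with values in *Sirt7* KO livers 1.85 to 2.86 times those in WT livers and no overlap between the groups. *C4b* (1.56 times) and *Hc* (1.37 times) were also higher in each *Sirt7* KO liver than in each WT liver. *C3*, *Cfb* and *C8g* overlapped between the genotypes. None of the 9 genes passed the threshold, which was an adjusted p-value under 0.05 and more than 1.5-fold change, in edgeR's quasi-likelihood test, in which 0.00798% of all tested genes did (1 gene). At an unadjusted p-value under 0.05, 6 of the 9 were higher and 0 lower, beside 6.54% of all tested genes that were higher and 4.78% that were lower. All *Sirt7* KO livers lay above all WT livers in the same 6 genes, beside 8.74% of all tested genes, and below them in 0, beside 8.09%. Without overlap in either direction there were 16.8% of all tested genes, and 11.3% had an unadjusted p-value under 0.05. DESeq2, which the study's methods name, called *C6*, *C8a*, *C8b* and *C9* higher when the average transcript length was passed to it, beside 1.33% of its 12963 genes, and these 4 with *C4b* when it was not, beside 1.28% of 14504. The median log2 fold change was 0.64 over the 9 genes and -0.0061 over all tested genes.

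The windows of 250 bases before the transcription start are shown for the 4 genes that stood furthest apart, and for *C3*, which overlapped (RefSeq, GRCm38.p6, 5′ to 3′, with motif matches in capitals).
C6 (chr15:4726960-4727209, plus strand): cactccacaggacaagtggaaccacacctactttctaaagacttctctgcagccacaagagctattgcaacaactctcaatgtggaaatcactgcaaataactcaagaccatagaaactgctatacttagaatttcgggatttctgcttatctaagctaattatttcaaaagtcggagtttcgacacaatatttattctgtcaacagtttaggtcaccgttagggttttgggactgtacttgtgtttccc
C9 (chr15:6445096-6445345, plus strand): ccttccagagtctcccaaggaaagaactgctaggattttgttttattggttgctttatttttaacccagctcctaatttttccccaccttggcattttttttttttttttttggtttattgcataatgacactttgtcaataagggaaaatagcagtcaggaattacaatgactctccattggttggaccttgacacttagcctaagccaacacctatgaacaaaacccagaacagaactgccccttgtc
C8a (chr4:104876399-104876648, minus strand): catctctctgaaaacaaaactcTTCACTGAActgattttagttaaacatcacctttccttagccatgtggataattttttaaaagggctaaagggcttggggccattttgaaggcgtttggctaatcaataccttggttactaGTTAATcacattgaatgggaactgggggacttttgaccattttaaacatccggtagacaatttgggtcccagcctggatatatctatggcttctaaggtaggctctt
C8b (chr4:104766067-104766316, plus strand): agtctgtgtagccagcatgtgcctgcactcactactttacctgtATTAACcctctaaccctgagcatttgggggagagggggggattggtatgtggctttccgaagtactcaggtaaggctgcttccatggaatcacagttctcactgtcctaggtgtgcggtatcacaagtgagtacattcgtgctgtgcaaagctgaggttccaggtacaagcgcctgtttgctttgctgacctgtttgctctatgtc
C3 (chr17:57228137-57228386, minus strand): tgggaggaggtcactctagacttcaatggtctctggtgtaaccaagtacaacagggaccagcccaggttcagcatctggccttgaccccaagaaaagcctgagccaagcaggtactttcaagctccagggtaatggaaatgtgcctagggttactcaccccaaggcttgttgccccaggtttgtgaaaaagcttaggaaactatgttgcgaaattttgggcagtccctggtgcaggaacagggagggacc
Letters of short motifs known for transcription factors were searched on both strands, and matches may overlap. They were GTTAAT (HNF1 core, in 6.43% of all 32851 windows of this length), TTGCNCAA (C/EBP, 2.61%), CAAAGTCCA (HNF4, 0.384%), GGANTTTCC (NF-kB, 1.07%), TTCNNNGAA (STAT, 7.02%) and TATAAA (12.4%). The capitals mark an HNF1 core in *C8a*, at position -107 from the start, and in *C8b*, at -206, and a STAT match in *C8a* at -228. These letters were not found in the windows of *C6*, *C9* and *C3*. Of the 9 genes, 7 had a window in the table, with 8 windows as *C8g* had a pair, and *Hc* also held an HNF1 core (-74) and TATAAA (-239). Matches of short motifs describe letters and do not show binding. Windows and positions follow the RefSeq start. The gene coordinates given below are from GENCODE M21, in which *C6*, *C9* and *Hc* start inside their windows. *C8a* and *C8b* are neighbours on chromosome 4 that face each other, and *C6* and *C9* both lie on chromosome 15.

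Between 9994860 and 13424776 reads per liver were assigned to transcripts, and the 9 genes had 342 to 67525 reads each per liver. Values are given as CPM, counts scaled to the library size after TMM. *Sirt7* itself had 55.2, 45.5 and 47.3 CPM in WT livers and 28.6, 41.7 and 40.8 CPM in *Sirt7* KO livers (log2 fold change -0.41, adjusted p = 0.42 from edgeR), a sum over isoforms that does not resolve exons. The hepatocyte markers, 7 of 7 detected, summed to 52671 to 57165 CPM in WT livers and 58380 to 66865 CPM in *Sirt7* KO livers. This sum thus lay above the WT livers in each *Sirt7* KO liver, but its members did not move as one. The log2 fold changes were 0.39 in *Apoa1*, 0.55 in *Cps1*, 0.38 in *Serpina1c* and 0.63 in *Fgb*, which is also an acute phase gene, and -0.066 in *Alb*, -0.14 in *Ttr* and -0.12 in *Apob*. In edgeR 0 of the 7 reached 0.05 before adjustment, and *Apoa1* alone did not overlap. Their part in the differences below was not tested. Summed markers of other cells overlapped between the genotypes, at 42.3 to 141 CPM for Kupffer cells (6 of 6 detected), 136 to 216 CPM for stellate cells (6 of 6) and 56.2 to 90.8 CPM for endothelial cells (5 of 5). Lymphocyte and plasma cell markers reached at most 19.7 CPM, cholangiocyte markers 13.003 CPM and neutrophil markers 5.49 CPM, with 1 neutrophil marker at 0 in every liver. WT replicate 1 stood apart in genes known for sex bias in liver, a list chosen after the values of the 9 genes were seen. Its 5 female-biased genes summed to 182 CPM, beside 2.89 to 12.5 CPM in the other 5 livers, and its 8 male-biased genes to 2796 CPM, beside 6653 to 15975 CPM.

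Of the genes of the membrane attack complex, *C6* (chromosome 15, 4727175 to 4814967 of GRCm38, plus strand) encodes the component that binds C5b first. It had 29.0, 88.9 and 78.1 CPM in the WT livers and 158.7, 179.6 and 221 CPM in the *Sirt7* KO livers. The lowest *Sirt7* KO liver was well above the highest WT liver, and WT replicate 1 was far below the others. *Sirt7* KO over WT gave a log2 fold change of 1.51 ± 0.36 (SE, adjusted p = 0.17 from edgeR). Without WT replicate 1, it was 1.15 (adjusted p = 0.11 from edgeR).

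*C8a* (chromosome 4, 104815679 to 104876398, minus strand) encodes the C8 chain that enters the membrane. It had 185, 169 and 214 CPM in the WT livers and 396, 301 and 354 CPM in the *Sirt7* KO livers, so each *Sirt7* KO value exceeded each WT value. On the log2 scale the difference was 0.89 ± 0.16 (SE, adjusted p = 0.12 from edgeR). *C8b* (chromosome 4, 104766317 to 104804548, plus strand) encodes the chain that docks C8 on the forming complex. It had 133, 129.6 and 160.0 CPM in the WT livers and 283, 259.7 and 321 CPM in the *Sirt7* KO livers. The lowest *Sirt7* KO liver was thus far above the highest WT liver, with a log2 fold change of 1.03 ± 0.16 (SE, adjusted p = 0.068 from edgeR), the smallest p-value of the 9.

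*C8g* (chromosome 2, 25498651 to 25501719, minus strand), whose product is joined to the alpha chain by a disulfide bond and is not required for the pore, did not show this separation. It had 759, 781 and 787 CPM in the WT livers and 729, 969 and 943 CPM in the *Sirt7* KO livers. One *Sirt7* KO liver was below all WT livers and the other two were above them. The log2 fold change was 0.18 (95% interval -0.18 to 0.55, adjusted p = 0.72 from edgeR), so a difference of the size seen in *C8a* lay outside the interval. The start of *C8g* overlaps *Fbxw5* on the other strand, and SMART-seq HT libraries do not mark the strand, so reads of the overlap cannot be told apart.

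*C9* (chromosome 15, 6445327 to 6498751, plus strand) encodes the component that polymerizes into the ring of the pore. It had 134.6, 193 and 229.5 CPM in the WT livers and 451, 322 and 398 CPM in the *Sirt7* KO livers. The groups were separate, with WT replicate 1 again the lowest liver. In log2 terms they differed by 1.07 ± 0.22 (SE, adjusted p = 0.15 from edgeR), and without WT replicate 1 it was 0.88 (adjusted p = 0.23 from edgeR). *C7*, which completes the complex, was not tested, as it had at most 1.35 CPM in any liver.

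*Hc* (chromosome 2, 34983331 to 35061438, minus strand), the gene of C5, gives both the anaphylatoxin C5a and the fragment on which the complex forms. It had 281, 275 and 298 CPM in the WT livers and 365, 360.2 and 444 CPM in the *Sirt7* KO livers. The WT livers were close together and all below the *Sirt7* KO livers. This gave a log2 fold change of 0.45 ± 0.15 (SE, adjusted p = 0.29 from edgeR), smaller than that of the 4 pore-forming genes.

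**Figure D1:**
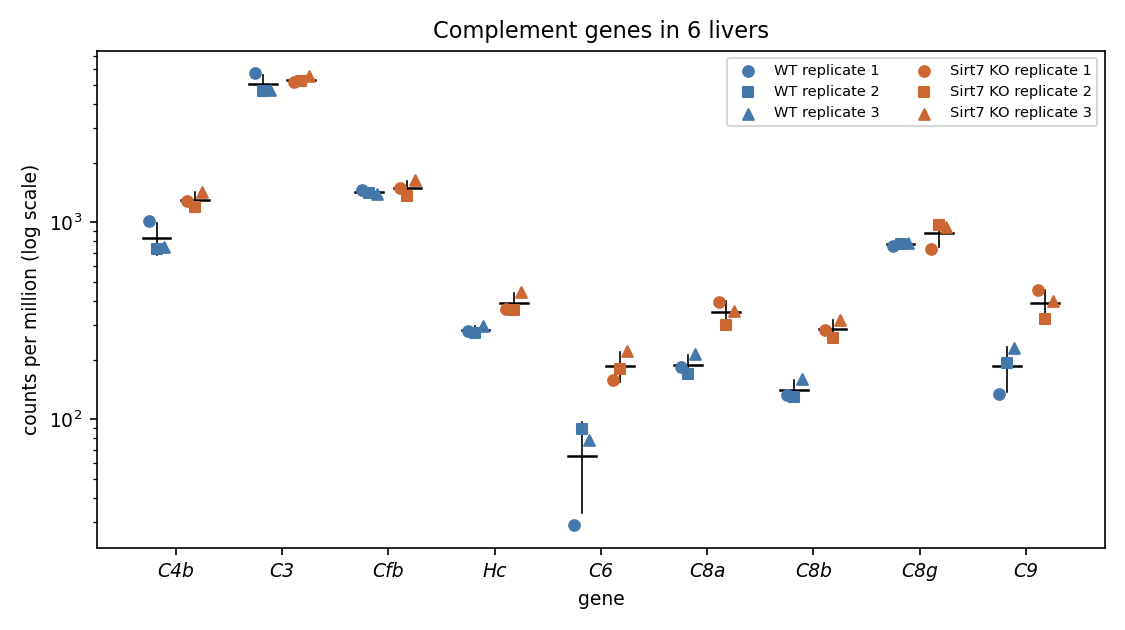
CPM (log axis) of the 9 complement genes in each liver; blue, WT, orange, *Sirt7* KO, marker shape for the replicate, horizontal line for the mean and vertical line for the SD (n = 3). The 3 *Sirt7* KO livers lie above the 3 WT livers in *C4b*, *Hc*, *C6*, *C8a*, *C8b* and *C9*, and the groups overlap in *C3*, *Cfb* and *C8g*.

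Among the early components, *C4b* (chromosome 17, 34728380 to 34743882, minus strand) had 1012, 736 and 754 CPM in the WT livers and 1282, 1192 and 1433 CPM in the *Sirt7* KO livers. The groups did not overlap, although WT replicate 1 came closer to the *Sirt7* KO livers than the other WT livers did. Between genotypes the log2 fold change was 0.64 ± 0.18 (SE, adjusted p = 0.22 from edgeR). Of the 31-base words of *C4b*, 48.3% also occur in the paralog *C4a*, known in mice as sex-limited protein, so reads may be divided between them. *C4a* had 34.3, 93.4 and 99.2 CPM in the WT livers and 149, 157 and 308 CPM in the *Sirt7* KO livers, again without overlap. Counted as 1 gene, the pair had a log2 fold change of 0.73 (adjusted p = 0.18 from edgeR).

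*C3* (chromosome 17, 57203970 to 57228136, minus strand) was the most highly counted of the 9 genes. It had 5718, 4654 and 4721 CPM in the WT livers and 5139, 5207 and 5539.8 CPM in the *Sirt7* KO livers. WT replicate 1 had the highest value of all livers and the other WT livers the lowest. The log2 fold change was 0.074 (95% interval -0.32 to 0.47, adjusted p = 0.92 from edgeR), and it was -0.044 with total-count scaling. Without WT replicate 1 the groups did not overlap, with a log2 fold change of 0.17 (adjusted p = 0.84 from edgeR).

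*Cfb* (chromosome 17, 34856374 to 34862518, minus strand), the protease subunit of the alternative pathway convertase, had 1455, 1407 and 1398 CPM in the WT livers and 1492, 1365 and 1633 CPM in the *Sirt7* KO livers. The *Sirt7* KO livers lay on both sides of the WT livers. The log2 fold change was 0.076 (95% interval -0.27 to 0.42, adjusted p = 0.90 from edgeR), and it was -0.035 with total-count scaling. Of the 31-base words of *Cfb*, 75.5% also occur in *Gm20547*, a readthrough gene on the same strand that held 0 to 539 reads per liver, and counting both as 1 gene gave 0.083 (adjusted p = 0.88 from edgeR).

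**Figure D2:**
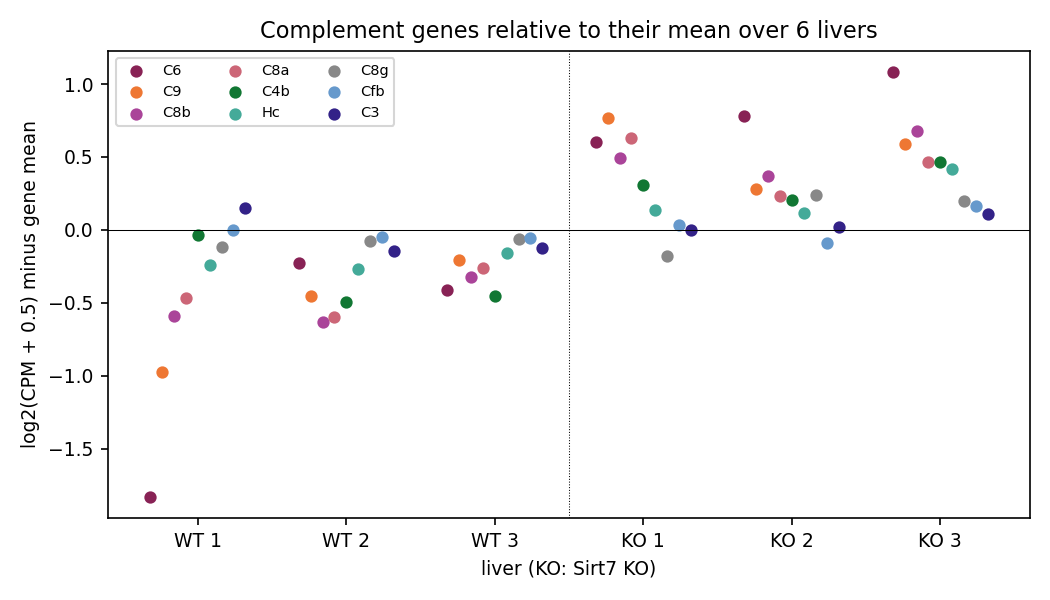
log2(CPM + 0.5) of each complement gene minus its mean over the 6 livers, with 1 colour per gene. The 9 genes averaged -0.46, -0.33 and -0.23 in the WT livers and 0.31, 0.24 and 0.46 in the *Sirt7* KO livers, with *C6* of WT replicate 1 as the lowest point.

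Relative to the mean of the 6 livers, *C6*, *C8a*, *C8b* and *C9* together stood at -0.97, -0.48 and -0.30 in the WT livers and at 0.62, 0.42 and 0.70 in the *Sirt7* KO livers on the log2 scale. WT replicate 1 was thus the lowest liver for these genes and also the one that stood apart in sex-biased genes. Without it, 6 of the 9 genes were still higher at an unadjusted p-value under 0.05 in edgeR, beside 5.43% of all genes tested then. The part of this liver's sex-biased expression in the differences was not tested beyond leaving it out. The summed male-biased genes of the other WT livers, 8452 and 11388 CPM, lay within the range of the *Sirt7* KO livers, 6653 to 15975 CPM. Much of this sum is *Mup20*, at 5436 and 8211 CPM in these WT livers and 12307, 3687 and 5590 CPM in the *Sirt7* KO livers. The sum thus says little of the less abundant genes. In edgeR 6 of the 8 were higher and 0 lower at an unadjusted p-value under 0.05, beside 6.54% and 4.78% of all tested genes. Their median log2 fold change was 1.29. Of these 8 genes, 5 were higher in each *Sirt7* KO liver than in each WT liver (*Hsd3b5*, *Cyp7b1*, *Elovl3*, *Slco1a1* and *Cyp4a12a*), beside 8.74% of all tested genes, while *Cyp2d9*, *Mup20* and *Selenbp2* overlapped, also without WT replicate 1.

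The genes whose log2 CPM was most like the mean of the 9 genes over the 6 livers, among 6671 others with a mean of at least 10 CPM, were *Krtcap2*, *Lifr*, *Rdh5*, *Cyp7b1* and *Txndc11* (Pearson r 0.987 to 0.996, a measure of likeness that also holds the difference between the groups). Their log2 fold changes were 0.47 to 1.18. *Krtcap2* is a subunit of the oligosaccharyltransferase, *Lifr* the receptor of leukemia inhibitory factor, and *Cyp7b1* a male-biased oxysterol hydroxylase that also belongs to the list of male-biased genes above.

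Levels were compared between genes as TPM, which is per transcript length. In WT livers *C3* had 1179.7 ± 176 TPM (SD, n = 3) and *C8g* 1012 ± 53.6 TPM (SD, n = 3), and the ranges of this pair overlapped. *Cfb* followed at 669 ± 67.7 TPM (SD, n = 3), then *C4b* at 189.8 ± 59.9 TPM (SD, n = 3) and *Hc* at 119 ± 5.14 TPM (SD, n = 3), each apart from its neighbours. *C9* (89.99 ± 16.1 TPM, SD, n = 3), *C8a* (72.6 ± 10.3 TPM, SD, n = 3) and *C8b* (59.6 ± 7.16 TPM, SD, n = 3) formed a run in which neighbours overlapped. *C6* was the lowest at 21.4 ± 10.03 TPM (SD, n = 3). In TPM the genes of the C8 chains were thus unequal, with *C8g* far above its partners *C8a* and *C8b* in each liver. The TPM of *C8g* is a sum over 7 transcripts, of which the leading one held 24.0% to 30.6% of reads. It may also hold reads of *Fbxw5*, which overlaps its start on the other strand.

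In *Sirt7* KO livers *C3*, *C8g*, *Cfb* and *C4b* kept the same places. *C9* was at 185 ± 22.7 TPM (SD, n = 3), above *Hc* at 158 ± 15.4 TPM (SD, n = 3), but their ranges overlapped. *C8a* and *C8b* were both at 118 TPM (SD 25.5 and 14.9, n = 3), and *C6* was last at 62.7 ± 13.3 TPM (SD, n = 3). On this scale *C4b* overlapped between the genotypes, as WT replicate 1 had 259 TPM and the lowest *Sirt7* KO liver 233 TPM. The TPM of *C6*, *C8a*, *C8b* and *C9* added up to 16.6%, 20.01% and 26.7% of that of *C3* in the WT livers and to 50.05%, 35.02% and 41.7% in the *Sirt7* KO livers, a ratio within each liver that is free of library scaling. These 4 genes were grouped after their values were seen, so the ratio is a description.

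**Figure D3:**
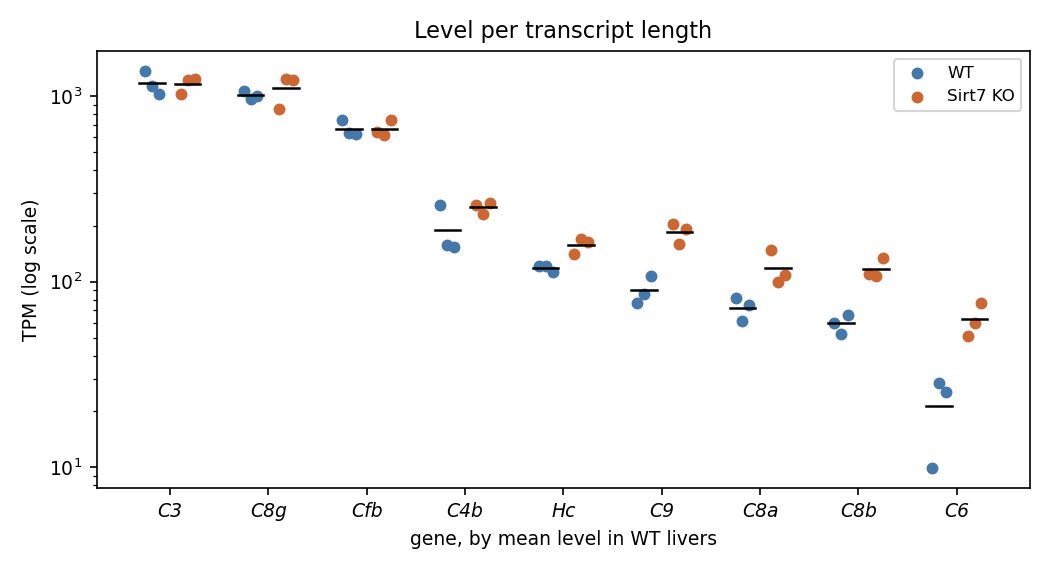
TPM (log axis) of the 9 genes, ordered by their mean in WT livers; points are livers and lines are means. *C3*, *C8g* and *Cfb* lie at 617 to 1372 TPM in all livers, and *C6* is the lowest gene in both genotypes.

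The isoforms of the 9 genes were compared because reads on short transcripts weigh more in TPM. The most read transcript held 97.2% to 98.4% of the reads of *C3*, 95.0% to 98.5% in *C4b*, 93.7% to 100% in *C6*, 97.0% to 99.9% in *C9* and 98.7% to 100% in *C8b*. In *Hc* it was the transcript of 5445 bases, with 85.3% to 90.3%. In *Cfb* the leading transcript took 67.3% to 79.6%, in *C8a* 47.3% to 67.0% and in *C8g* 24.0% to 30.6%, where 6 of 7 transcripts had reads. In *C8a* the share of reads differed by -6.32 percentage points in *Sirt7* KO livers (exact permutation test, p = 0.4), a value that ranged from -2.50 without WT replicate 2 to -12.2 without WT replicate 3 and was 0.31 when the share was taken from TPM. The smallest exact p-value among the 9 genes was 0.2, in *C4b*, where 3 livers against 3 cannot go below 0.1. With reads per kilobase of the leading transcript in place of TPM, *Hc* moved from rank 5 to rank 8 in WT livers, behind *C9*, *C8b* and *C8a*.

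Other genes of the cascade were taken from a list of 40, of which 30 were tested. Of these, 0 were called by edgeR, while 7 were higher and 0 lower at an unadjusted p-value under 0.05, beside 6.54% and 4.78% of all tested genes. Without *Sirt7* KO replicate 3, 4 of 33 were higher at that p-value, beside 4.76%. DESeq2 called 1 higher without length offsets, beside 1.28% of all its genes, and 0 with them, beside 1.33%. All *Sirt7* KO livers were above all WT livers in 10 of the 30, beside 8.74% of all tested genes, and below them in 1, beside 8.09%. The median log2 fold change was 0.18. Among the 14 tested genes of the classical and lectin pathways, the smallest p-values belonged to *C4a*, *C2* and *Masp1*. *C2*, the protease partner of C4b and the neighbour of *Cfb*, had 94.0, 92.7 and 93.7 CPM in the WT livers and 119, 117 and 148 CPM in the *Sirt7* KO livers (log2 fold change 0.46, adjusted p = 0.28 from edgeR). *Masp1*, a protease of the lectin pathway, had 61.5, 71.9 and 77.7 CPM in the WT livers and 93.9, 97.5 and 95.7 CPM in the *Sirt7* KO livers (log2 fold change 0.44, adjusted p = 0.28 from edgeR).

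Of 11 tested regulators, *C4bp*, which binds C4b and promotes its breakdown, had the smallest p-value. It had 231, 294 and 309 CPM in the WT livers and 581, 489 and 443 CPM in the *Sirt7* KO livers, without overlap (log2 fold change 0.86, adjusted p = 0.15 from edgeR). *Cpn2*, a subunit of the carboxypeptidase that inactivates anaphylatoxins, had a log2 fold change of 0.58 (adjusted p = 0.26 from edgeR), and *Serping1*, the C1 inhibitor, 0.32 (adjusted p = 0.46 from edgeR). The tested receptors, *C5ar1*, *C3ar1*, *Itgb2* and *Vsig4*, are genes of leukocytes and had at most 18.5 CPM, with log2 fold changes from -1.30 in *C5ar1* to 0.52 in *Vsig4* and adjusted p-values of 0.54 or more in edgeR. *Cfp*, the only other tested gene of the alternative and terminal pathways, had a log2 fold change of 0.10 (adjusted p = 0.96 from edgeR).

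**Figure D4:**
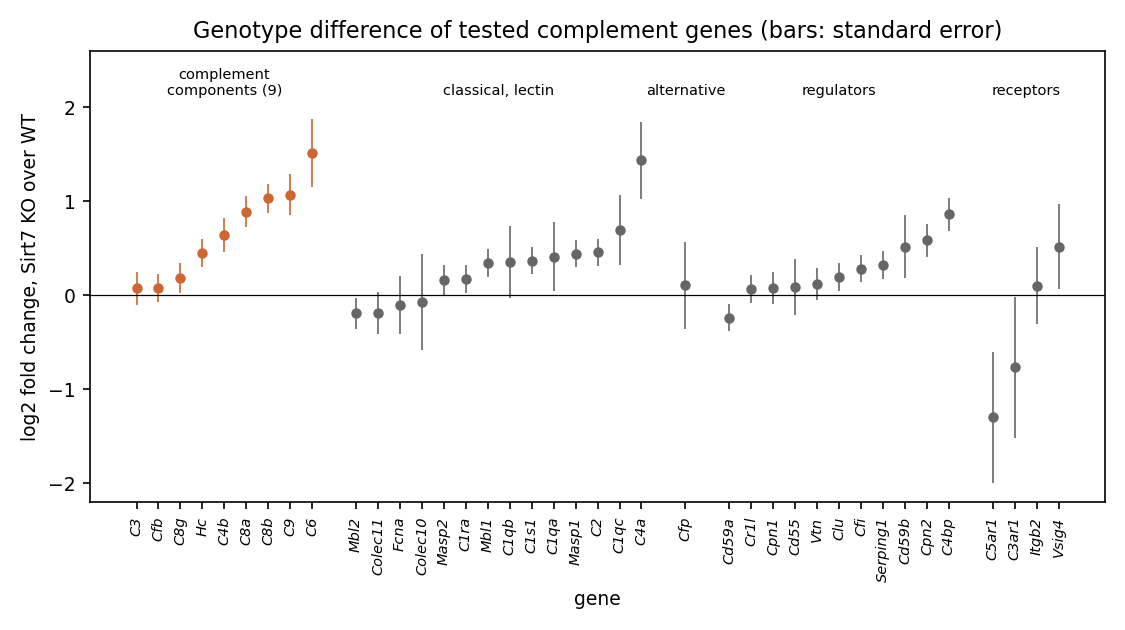
Log2 fold change of *Sirt7* KO over WT, with its standard error from edgeR, for the 9 genes (orange) and the other 30 tested complement genes (grey) by role. *C6*, *C9*, *C8b* and *C8a* lie between 0.89 and 1.51, and *C4a* and *C4bp* lead the other genes.

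As several hepatic complement genes are part of the acute phase response, in which IL-6 acts through STAT3, 21 acute phase genes were compared in the same test. Of these, 0 were called by edgeR, and 6 were higher and 0 lower at an unadjusted p-value under 0.05, beside 6.54% and 4.78% of all tested genes, with a median log2 fold change of 0.51. The smallest p-values were those of *Orm1* (log2 fold change 0.84, adjusted p = 0.15 from edgeR), *Orm2* (1.70, adjusted p = 0.15) and *Saa4* (0.85, adjusted p = 0.17). *Saa1*, a strongly inducible member, had 631, 26.5 and 67.1 CPM in the WT livers and 466, 217 and 216 CPM in the *Sirt7* KO livers. WT replicate 1 was the highest liver for *Saa1* and likewise for *Saa2*, *Lcn2* and *Mt1*, in which the other WT livers were the lowest, so it stood apart in these acute phase genes as well as in the sex-biased ones. Without it, 16 of the 21 genes were higher and 0 lower at an unadjusted p-value under 0.05 in edgeR, beside 5.43% and 3.77% of all genes tested then, and the median log2 fold change was 0.97. With each other liver left out, 4 to 7 were higher and 0 to 1 lower, beside 4.42% to 8.97% and 3.17% to 8.12% of all genes. Without WT replicate 2 the median was 0.16. Of the 6 livers, WT replicate 1 thus moved the count of acute phase genes most. Of 15 signalling genes, 1 was higher and 2 were lower at an unadjusted p-value under 0.05, beside 6.54% and 4.78% of all tested genes, and without WT replicate 1 it was 3 higher and 0 lower. *Stat3* had 144, 103 and 89.0 CPM in the WT livers and 184, 199.4 and 175 CPM in the *Sirt7* KO livers (log2 fold change 0.73, adjusted p = 0.20 from edgeR). *Cebpb* had a log2 fold change of -1.60 (adjusted p = 0.36 from edgeR), and *Nfkbia*, the NF-kB inhibitor, -0.41 (adjusted p = 0.39 from edgeR). Over both lists DESeq2 called 5 genes, all higher, with length offsets and also without them. It called 1.33% of all its genes higher with offsets and 1.28% without. Whether the differences of the complement genes belong with those of the acute phase genes was not tested.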

How the data were processed

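Liver RNA-seq of 6 male mice was analyzed, 3 of each genotype. The authors trimmed reads with Trim Galore (version 0.6.5) and quantified them with Salmon (version 1.2.1) on the mouse transcriptome of GRCm38, whose annotation release is not given in the sources used here. They deposited, for each liver, estimated counts per transcript, which are not normalized. The authors' files also give TPM, scaled by Salmon to effective transcript length and to a fixed total.

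Estimated counts and TPM were summed over the transcripts of each GENCODE M21 gene, and counts were rounded. Of 140992 transcripts, 1201 belonged to none of these genes and were dropped (0.303% to 0.492% of reads). Genotypes were compared with edgeR 4.0.16 (TMM, filterByExpr with a minimum count of 10, quasi-likelihood test) with Benjamini-Hochberg adjustment over 12524 genes. DESeq2 1.42.0, limma 3.58.1 on log2(TPM + 0.5), other scalings, filters and length offsets, a replicate block and leaving out each liver were alternatives. Isoform shares were compared by two-sided exact permutation.

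The complement genes and the gene lists were chosen with earlier results of these data known. The text names all 9 genes, *Sirt7* and the 3 genes with the smallest p-value in each other list. It also names *C4a*, *Gm20547* and the 5 genes of most similar pattern. *C7*, the acute phase genes high in WT replicate 1, *Fbxw5* and *Itgb2* were chosen after their values were seen. So were the hepatocyte markers and the sex-biased lists. Livers of 1 genotype differed by more than sampling noise (chi-square per gene of at least 16.9). The p-values of edgeR set the genotype difference against the spread between these mice, estimated with the help of all tested genes. Intervals are for the mean log2 fold change and rest on the same spread. No molecular identifiers are stated, so reads are not independent molecules.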

Additional observations from a re-analysis of the deposited data

How the results depend on the processing

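With edgeR at the stated threshold 0 of the 9 genes were called, and the count was 4 without a filter on low counts, 5 in DESeq2 without length offsets and 4 with them, 1 with the replicate block, 5 when the unadjusted p-value served for the threshold, and 0 to 2 with each liver left out, where leaving out *Sirt7* KO replicate 1 gave the 2, *C8a* and *C8b*. Over all genes these settings gave 633, 256, 242, 41, 925 and 0 to 252 calls (252 without *Sirt7* KO replicate 1) in place of 1, and total-count scaling and edgeR with length offsets gave 2 each. Other complement genes went from 0 calls to 3 without the filter, 1 in DESeq2 without offsets and 2 at the unadjusted threshold. Acute phase and signalling genes went from 0 to 8 without the filter, 5 in DESeq2 both without and with offsets, 1 with the block, 7 at the unadjusted threshold and 0 to 2 with each liver left out. The cause was not tested.

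The log2 fold changes of *C6*, *C8a*, *C8b*, *C9*, *C4b*, *Hc* and *C8g* kept their sign under every alternative run. With each liver left out they ranged from 1.15 to 1.80 in *C6*, 0.79 to 0.99 in *C8a*, 0.94 to 1.13 in *C8b* and 0.88 to 1.26 in *C9*. The sign turned for *C3* with total-count scaling (-0.044) and with limma on TPM (-0.022), and for *Cfb* likewise (-0.035 and -0.0027). Total-count scaling moved the median of all tested genes to -0.11. With each liver left out, 5 to 6 of the 9 genes were higher at an unadjusted p-value under 0.05, beside 4.42% to 8.97% of all genes tested then. All remaining *Sirt7* KO livers lay above all remaining WT livers in 6 to 7, beside 12.1% to 18.2% of all genes. That share was 8.74% with all 6 livers. These counts were chosen after seeing the data, as were those of the other lists without 1 liver. Taken from TPM, the difference in the leading transcript's share was 2.82 percentage points in *C3*, 9.18 in *C4b*, -5.85 in *C6* and 0.31 in *C8a*, and by reads per kilobase *Hc* ranked 8, *C9* 5 and *C8b* 6 in WT livers.

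The labels do not say whether same-numbered livers were paired. The correlations of same-numbered livers' deviations were 0.065, 0.080 and -0.044, beside -0.103 to 0.049 for livers of unlike number. With 3 livers a genotype these values cannot show whether the mice were paired. With the replicate block *C8b* was called (log2 fold change 1.03, adjusted p = 0.045 from edgeR). In the main edgeR fit, which has no block, none of the 9 genes passed the adjusted threshold, *C6* with its log2 fold change of 1.51 included.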
